A study of Mus musculus with 22 samples.

Results

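The 42 mitosis genes described here encode proteins that drive a cell through chromosome condensation, spindle assembly, chromosome segregation and cytokinesis. They were taken by gene symbol from a fixed list, and all 42 were found among the 16059 genes of the expression table. The rule uses gene symbols and no measured value, but the members were chosen with earlier results of these data known. All 42 genes had enough counts to be tested, as did 12213 genes in all. RNA was sequenced from mouse bone marrow-derived macrophages, which are primary macrophages grown out of C57/BL6 marrow over 7 days in medium with L929 cell supernatant, a source of the growth factor M-CSF. There were 5 groups of 2 libraries, each treated for 3 hours: untreated cells (control), cells given L-(+)-lactic acid alone (LA), cells given lipopolysaccharide at 100 ng/ml (LPS), cells given LPS with 10 mM lactic acid (LPS+LA), and cells given LPS in medium acidified with hydrochloric acid (LPS+HCl), for which the labels give pH 6.5 as an example. The dose of lactic acid given alone and the pH reached with lactic acid are not stated in the sources used here. All groups share the strain, the cell type and the L929 supernatant, and no genetic change is named for any of them. The labels do not say whether the 2 libraries of a group came from separate animals or cultures, so every p-value measures only the spread between these libraries, which may be technical.

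Macrophages grown in M-CSF keep dividing, and LPS, a bacterial cell wall component sensed by Toll-like receptor 4, is known to stop that division. Mitosis genes are transcribed late in the cell cycle. Their transcription depends on the MuvB complex with B-Myb and Foxm1, which acts at a promoter element called the cell cycle genes homology region (CHR), often with upstream CCAAT boxes bound by NF-Y. In resting cells MuvB joins p130 and E2f4 in the repressive DREAM complex at the same promoters. Lactic acid is a product of glycolysis that builds up around inflamed and tumour tissue, and hydrochloric acid serves as a comparison in which the acidity comes without lactate.

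Levels below are CPM, each gene’s count as a rate on a library size common to all libraries after scaling by TMM (the trimmed mean of M values), and a gene was called higher or lower when the quasi-likelihood test of edgeR, adjusted by Benjamini-Hochberg over all 12213 genes, gave an adjusted p under 0.05. Differences are log2 ratios with their standard error. The libraries held 18668666 to 20219895 counts, and each group had n = 2. Size factors were lowest for LPS (0.759) and highest for control (1.27), and the choice of scaling matters: scaling by total count instead of TMM shifted the median of all genes by -0.72 in LPS against control and by 0.40 in LPS+LA against LPS. The summed level of 10 macrophage markers was 14597 to 20496 CPM. Summed markers of neutrophils, T cells, B cells, natural killer cells, erythroid cells, mast cells and fibroblasts were at most 13.7 CPM in any library. Some of these sums rest on part of the marker list. The expression table held 3 of 6 T cell, 3 of 5 B cell, 2 of 5 natural killer, 4 of 6 erythroid and 2 of 5 mast cell markers. Summed neuron markers stood at 12.9 CPM in control 1 and 24.5 CPM in LPS+HCl 2 against at most 4.90 CPM elsewhere. Counts of the mitosis genes in pairwise comparisons that use these libraries are therefore also given without them. Lists of other genes are given with all libraries only, and some of their counts were smaller without these libraries.

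The mitosis genes were expressed in untreated macrophages, mostly fell with LPS, and as a sum stood closer to the control level when lactic acid was given with LPS. Their summed level was 5490 and 5576 CPM in the control libraries, 5322 and 5234 in LA, 3657 and 3624 in LPS, 4896 and 4981 in LPS+LA, and 4155 and 4171 in LPS+HCl. The LPS libraries were the lowest, LPS+HCl lay between LPS and LPS+LA, and no groups overlapped. As a share of all counts, before any scaling, the 42 genes took 0.693% of the control libraries, 0.614% with LA, 0.277% with LPS, 0.497% with LPS+LA and 0.373% with LPS+HCl (means, SD at most 0.00929%). In bulk RNA, fewer cells in mitosis and less RNA of these genes per cell cannot be told apart. The summed level of 8 markers of granulocyte and monocyte progenitors, a dividing cell type of the marrow, was also lowest in LPS, and was highest in LA: 54.3 and 55.9 CPM in control, 73.8 and 77.9 in LA, 42.6 and 44.9 in LPS, 65.6 and 61.7 in LPS+LA, and 50.3 and 50.1 in LPS+HCl. All 8 were detected, and their part in the result was not tested.

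**Figure D1:**
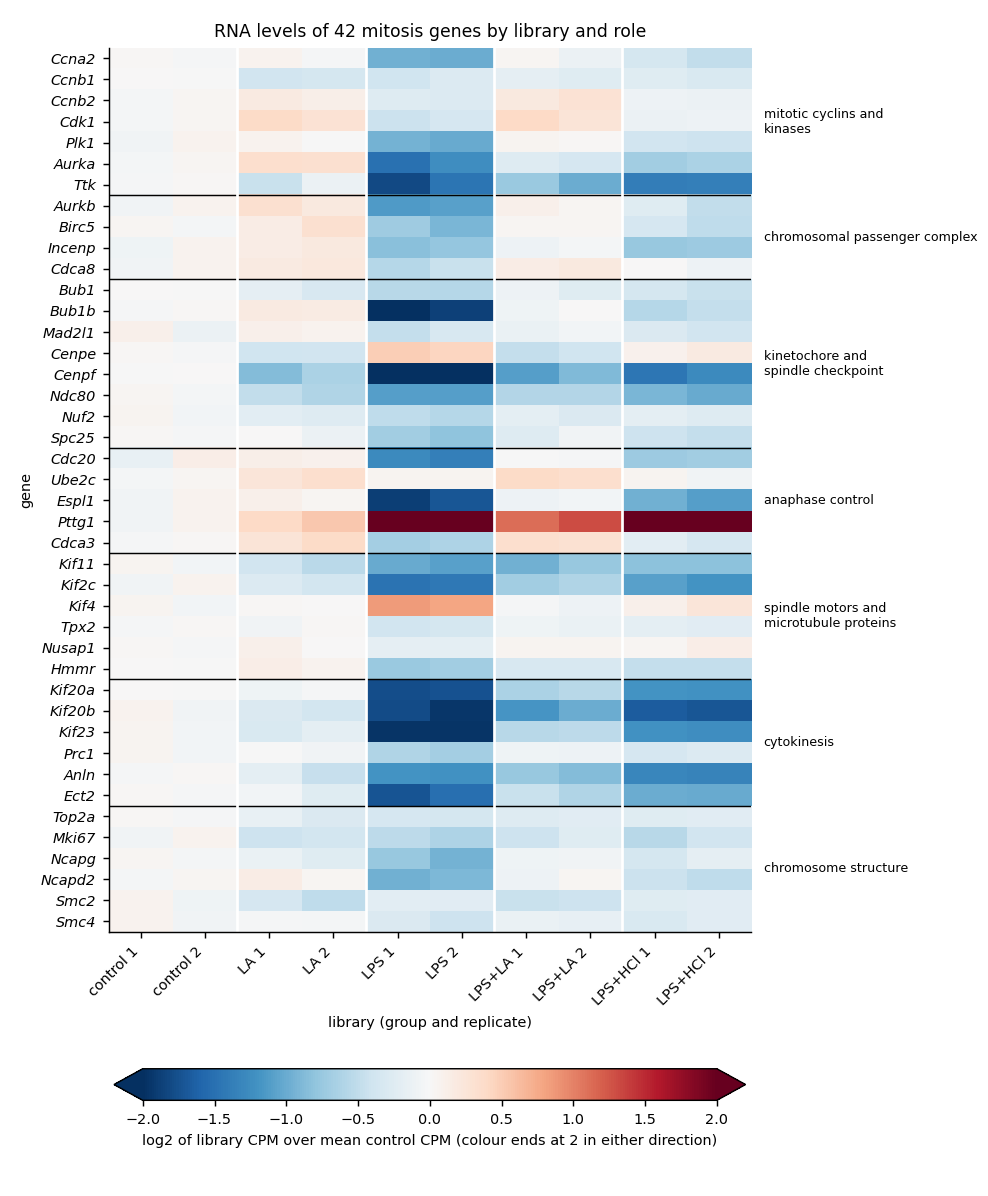
Level of each of the 42 mitosis genes in each of the 10 libraries, as the log2 of its CPM over the mean CPM of the 2 control libraries, with genes grouped by role and colours ending at 2 in either direction. Most genes are lowest in the LPS libraries, and Pttg1, Kif4 and Cenpe are highest there.

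LPS lowered 38 of the 42 genes and raised 3, where 32.4% of all tested genes were lower and 32.4% were higher. The median difference was -0.78 over the mitosis genes and -0.05 over all genes. Of the 38 genes that fell, 15 fell by 1 or more on the log2 scale and 9 by less than 0.5. The 15 are 35.7% of the mitosis genes, and 16.1% of all tested genes fell as far. The largest falls were those of Cenpf, Kif23 and Bub1b, and the rises were those of Pttg1, Kif4 and Cenpe. Ube2c did not pass the test. Without the control and LPS+HCl libraries with neuron transcripts, 36 fell and 3 rose. Under total-count scaling 40 mitosis genes were lower and only Pttg1 was higher, where 8289 of all 12213 genes were lower and 1761 higher. The medians were then -1.50 over the mitosis genes and -0.77 over all genes.

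Lactic acid added to LPS raised 35 of the 42 genes above LPS and lowered 4, against 29.2% of all genes higher and 29.7% lower. The median was 0.64 for the mitosis genes and 0.03 for all genes. The hydrochloric acid comparison raised 24 genes and lowered 3, against 18% of all genes higher and 20.8% lower, with a median of 0.27 against 0.01. Tested directly, 28 mitosis genes were higher and 3 lower in LPS+LA than in LPS+HCl, where 18.4% and 22.5% of all genes were; the median was 0.36 against 0.00 for all genes to 2 decimals. These comparisons share the LPS, LPS+LA or LPS+HCl libraries. Under total-count scaling 39 mitosis genes were higher and 3 lower in LPS+LA than in LPS, where 6208 and 2032 of all 12213 genes were. The medians were then 1.04 for the mitosis genes and 0.43 for all genes. In LPS+HCl against LPS 38 were higher and 1 lower under that scaling, where 4535 and 1310 of all genes were. The medians of that comparison were 0.51 for the mitosis genes and 0.25 for all genes. Without the libraries with neuron transcripts, 19 mitosis genes were higher and 3 lower in LPS+HCl than in LPS, under TMM scaling. In LPS+LA against LPS+HCl 22 were then higher and 2 lower.

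**Figure D2:**
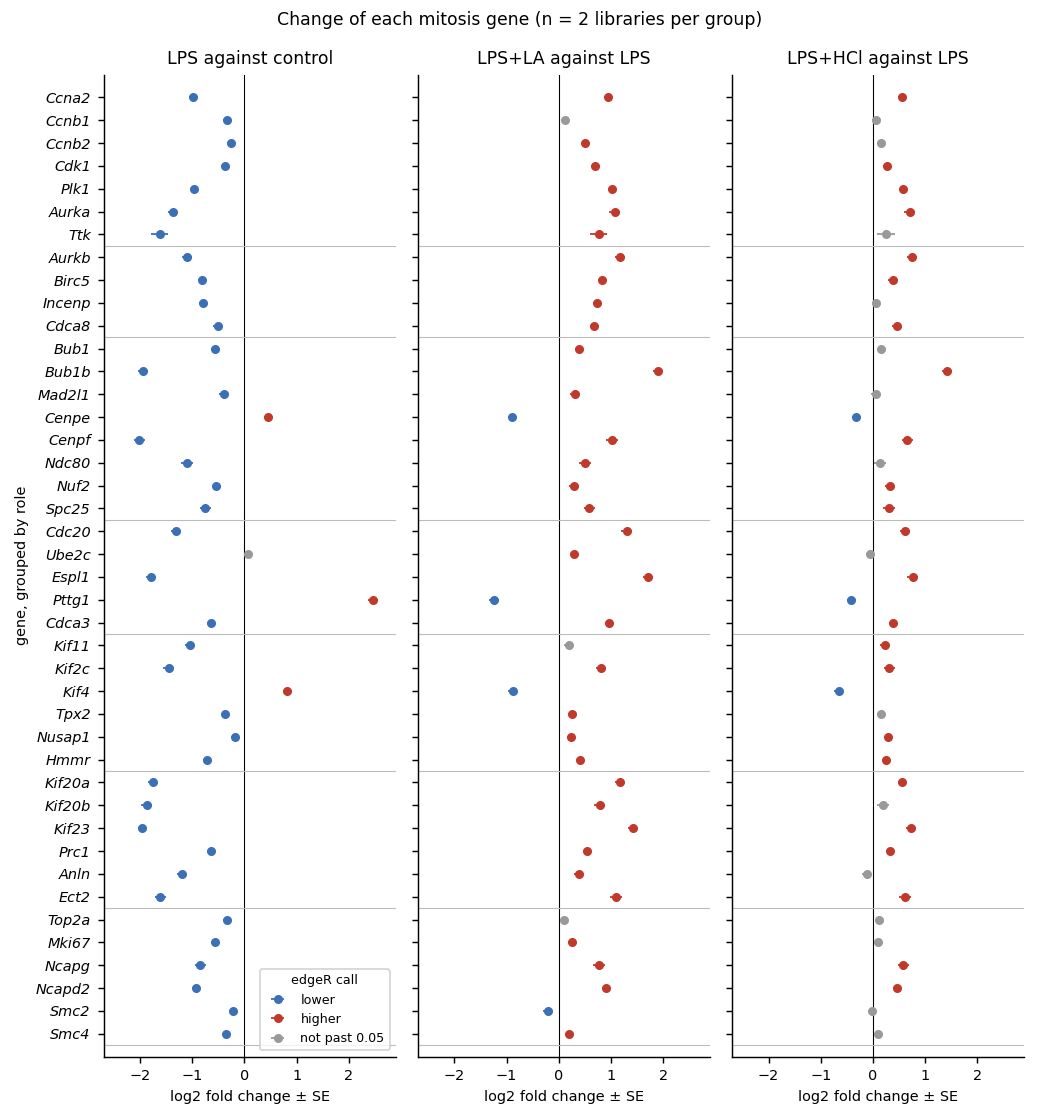
Log2 differences with their standard error for the 42 genes, grouped by role, in LPS against control, LPS+LA against LPS and LPS+HCl against LPS, with blue for lower, red for higher and grey for not past the threshold (n = 2 libraries per group). Pttg1, Kif4 and Cenpe are red with LPS and blue in the other panels, and most other genes are blue with LPS and red or grey in the others; under total-count scaling Cenpe falls with LPS.

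The mitotic cyclins and kinases, which start and time mitosis, all fell with LPS (7 of 7, median -0.97), and 6 of 7 were higher with LPS+LA than with LPS. Ccna2 (cyclin A2, chr3:36564865-36573038), a partner of Cdk2 and Cdk1 in S and G2 phase, stood at 259 and 252 CPM in control, 269 and 252 in LA, 131 and 129 in LPS, 262 and 237 in LPS+LA, and 200 and 181 in LPS+HCl. Both LPS libraries were the lowest of the 10, and the LPS+LA libraries overlapped those of control and of LA. The fall with LPS was 0.98 ± 0.08 on the log2 scale (edgeR adjusted p = 4.59e-11), and LPS+LA exceeded LPS by 0.94 ± 0.08 (edgeR adjusted p = 1.6e-10). Ccnb2 (cyclin B2, chr9:70407689-70421554), an activator of Cdk1, had a shallower pattern, with 109 and 115 CPM in control, 128 and 122 in LA, 94.1 and 92.7 in LPS, 129 and 138 in LPS+LA, and 104 and 104 in LPS+HCl. It fell with LPS by 0.26 ± 0.08 and was 0.51 ± 0.08 higher in LPS+LA than in LPS. Cyclin B1 itself, Ccnb1, fell by 0.33 with LPS, and its difference of 0.13 between LPS+LA and LPS did not pass the test. It also fell with LA alone, by 0.37.

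Among the kinases, Cdk1, which drives entry into mitosis, fell by 0.38 and was 0.70 higher with LPS+LA than with LPS. Plk1, which acts in centrosome maturation, spindle assembly and mitotic exit, was at 128 and 140 CPM in control, 69.9 and 66.3 in LPS, 139 and 136 in LPS+LA, and 103 and 101 in LPS+HCl. The LPS+LA libraries lay within the range of the control libraries, and the LPS+HCl libraries lay between LPS and LPS+LA. Aurka, the centrosomal Aurora kinase, and Ttk (Mps1), which starts spindle checkpoint signalling, fell further, by 1.36 and 1.62, and both were still lower in LPS+LA than in LA alone, by -0.62 and -0.59. The Ttk difference was not called without LA 2 (-0.42) or without LPS+LA 2 (-0.47). In LPS+HCl against LPS, Ccna2, Cdk1, Plk1 and Aurka were higher, while the differences of Ccnb1, Ccnb2 and Ttk (0.06, 0.16 and 0.25) did not pass the test.

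The promoters of 4 of these genes are shown because they carry the elements that the mitosis genes have in common. Each stretch is 190 bases of RefSeq sequence on GRCm38.p6, from 150 bases before the annotated start to 40 after it, read 5′ to 3′ on the strand of the gene. Capitals mark matches to the CHR letters TTTGAA and to CCAAT, which reads ATTGG on the other strand. The stretches are chr9:70421515-70421704 (minus strand) for Ccnb2, chr10:69352873-69353062 (minus) for Cdk1, chr7:122159285-122159474 (plus) for Plk1 and chr2:172370531-172370720 (minus) for Aurka.
Ccnb2: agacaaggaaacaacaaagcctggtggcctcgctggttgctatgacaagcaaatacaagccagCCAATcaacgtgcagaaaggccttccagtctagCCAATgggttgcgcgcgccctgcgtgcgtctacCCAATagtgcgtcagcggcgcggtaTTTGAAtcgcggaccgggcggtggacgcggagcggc
Cdk1: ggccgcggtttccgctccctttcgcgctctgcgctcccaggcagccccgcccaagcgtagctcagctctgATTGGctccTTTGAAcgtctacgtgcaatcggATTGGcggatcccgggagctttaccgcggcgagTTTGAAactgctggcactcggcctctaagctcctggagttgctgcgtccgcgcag
Plk1: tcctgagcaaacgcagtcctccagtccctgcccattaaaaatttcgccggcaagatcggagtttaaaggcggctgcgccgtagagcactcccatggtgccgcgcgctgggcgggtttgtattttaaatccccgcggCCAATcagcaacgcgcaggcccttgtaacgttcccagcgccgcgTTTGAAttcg
Aurka: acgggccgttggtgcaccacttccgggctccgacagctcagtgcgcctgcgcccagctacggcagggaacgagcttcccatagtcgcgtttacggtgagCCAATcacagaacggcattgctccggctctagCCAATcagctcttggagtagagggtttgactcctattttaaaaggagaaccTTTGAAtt
In Ccnb2 the CHR match of the stretch began 4 bases after the start, behind 3 CCAAT boxes beginning at -87, -54 and -21. A further CHR match of Ccnb2, at -167, lay upstream of the stretch shown. In Plk1 and Aurka the CHR match began 30 and 32 bases after the start, and in Cdk1 a CHR match lay just before the start, at -15, with a further one at -71. The annotated start used for Aurka lies 316 bases inside the outer bound of the gene, so transcripts with another start exist in the annotation.

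All 4 members of the chromosomal passenger complex, which corrects chromosome attachments and directs cytokinesis, fell with LPS (median -0.80) and were higher with LPS+LA than with LPS (median 0.78). Incenp (chr19:9872295-9899489), the scaffold of the complex, stood at 202 and 226 CPM in control, 239 and 246 in LA, 120 and 125 in LPS, 199 and 209 in LPS+LA, and 127 and 129 in LPS+HCl. Birc5 (survivin, chr11:117849237-117855743), which brings the complex to centromeres, was at 106 and 101 CPM in control, 114 and 128 in LA, 63.3 and 54.8 in LPS, 105 and 106 in LPS+LA, and 81.5 and 73.0 in LPS+HCl. Incenp was the member of this complex that did not differ detectably between LPS+HCl and LPS: the difference was 0.06 ± 0.07 (edgeR adjusted p = 0.562), while LPS+LA stood 0.67 ± 0.07 above LPS+HCl (edgeR adjusted p = 8.9e-08). The kinase Aurkb fell by 1.11 with LPS and was 1.17 higher with LPS+LA and 0.74 higher with LPS+HCl than with LPS. Cdca8 (borealin) fell by 0.51 and was 0.68 and 0.46 higher in those 2 comparisons.

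Kinetochore and checkpoint genes, whose proteins hold chromosomes to microtubules and delay anaphase until all are attached, fell in 7 of 8 cases (median -0.66). Bub1b (BubR1, chr2:118598202-118641592), a subunit of the mitotic checkpoint complex, stood at 94.2 and 97.7 CPM in control, 109 and 107 in LA, 23.6 and 26.4 in LPS, 90.3 and 96.2 in LPS+LA, and 64.5 and 69.2 in LPS+HCl. LPS libraries were far below all others. Bub1b was 3.84-fold lower with LPS than in control (log2 -1.94 ± 0.09, edgeR adjusted p = 2.58e-15), and 3.74-fold higher with LPS+LA than with LPS (1.90 ± 0.09, edgeR adjusted p = 1.19e-14), which was the largest rise of the 42 genes. It also had the largest rise with LPS+HCl against LPS, 1.42 ± 0.09 (edgeR adjusted p = 1.47e-11). Bub1, its related kinase, moved less, falling by 0.56 and rising by 0.40 with LPS+LA.

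Cenpf (chr1:189640606-189688107), a large coiled-coil protein of the outer kinetochore, showed the largest fall with LPS, 4.04-fold (log2 -2.01 ± 0.11, edgeR adjusted p = 4.49e-14). It was at 86.4 and 86.8 CPM in control, 47.7 and 55.8 in LA, 21.3 and 21.5 in LPS, 40.2 and 46.8 in LPS+LA, and 31.8 and 35.9 in LPS+HCl. Unlike Bub1b, Cenpf was lower in LA than in control, by -0.74, and LPS+LA stayed below the control libraries. Mad2l1 (Mad2, chr6:66535221-66541107), the checkpoint protein that binds Cdc20, was at 80.2 and 68.8 CPM in control, 80.1 and 78.2 in LA, 53.8 and 59.3 in LPS, 68.1 and 71.8 in LPS+LA, and 60.7 and 57.3 in LPS+HCl. Spc25 (chr2:69193895-69206213), a subunit of the Ndc80 complex that binds microtubules, was at 43.4 and 41.7 CPM in control, 42.7 and 39.4 in LA, 26.4 and 24.3 in LPS, 35.5 and 40.6 in LPS+LA, and 31.9 and 30.7 in LPS+HCl. The other subunits of that complex, Ndc80 and Nuf2, fell by 1.10 and 0.54 with LPS and were 0.51 and 0.30 higher with LPS+LA. In LPS+LA against LPS the call of Nuf2 was lost without LPS 2 (0.27) or LPS+LA 1 (0.25), and that of Mad2l1 without LPS 1 (0.24).

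The genes of anaphase control divided in direction. Cdc20, the activator of the anaphase-promoting complex, fell by 1.31 with LPS and was 1.30 higher with LPS+LA than with LPS. Espl1 (chr15:102296254-102324357), separase, the protease that opens cohesin at anaphase, stood at 77.7 and 85.6 CPM in control, 87.4 and 83.8 in LA, 22.2 and 25.0 in LPS, 75.9 and 78.5 in LPS+LA, and 41.9 and 38.0 in LPS+HCl. It was 3.27-fold higher with LPS+LA than with LPS (1.71 ± 0.10, edgeR adjusted p = 2.84e-13), 0.76 ± 0.10 higher with LPS+HCl than with LPS (edgeR adjusted p = 1.55e-06), and had the largest excess of LPS+LA over LPS+HCl, 0.95 ± 0.09 (edgeR adjusted p = 1.01e-08). Cdca3 (chr6:124829530-124833701), an F-box-like protein linked to degradation of Wee1, was at 167 and 173 CPM in control, 205 and 223 in LA, 107 and 111 in LPS, 214 and 211 in LPS+LA, and 148 and 135 in LPS+HCl. In Cdca3 both groups with lactic acid stood above the control libraries, and LA alone exceeded control by 0.33.

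Ube2c (chr2:164769929-164772902), the ubiquitin-conjugating enzyme of the anaphase-promoting complex, had the highest level per length in control, at 626 TPM, the deposited unit that corrects for transcript length. It was the only member that LPS neither raised nor lowered by the test, at 212 and 222 CPM in control, 257 and 272 in LA, 226 and 225 in LPS, 282 and 272 in LPS+LA, and 226 and 207 in LPS+HCl. The difference with LPS was 0.06 ± 0.07 (edgeR adjusted p = 0.478), and under total-count scaling it was lower with LPS, by -0.66. Both groups with lactic acid were above the other 3 groups: LA exceeded control by 0.29 and LPS+LA exceeded LPS by 0.30.

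Pttg1 (securin, chr11:43420244-43427463), the inhibitor of separase that is degraded at anaphase, went the opposite way from Espl1. It stood at 14.8 and 16.3 CPM in control, 20.4 and 22.5 in LA, 83.8 and 87.4 in LPS, 33.6 and 38.6 in LPS+LA, and 63.0 and 65.7 in LPS+HCl. The 5 groups did not overlap, with control lowest and LPS highest. LPS raised Pttg1 5.51-fold (log2 2.46 ± 0.10, edgeR adjusted p = 3.94e-16). LPS+LA was 2.37-fold lower than LPS (log2 -1.25 ± 0.10, edgeR adjusted p = 1.12e-10), and LPS+HCl was lower by -0.41 ± 0.09 (edgeR adjusted p = 0.00119), a call that was lost under total-count scaling (-0.18). Pttg1 was also higher in LA than in control, by 0.47, and was the only member higher in LPS+LA than in LA, by 0.75.

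**Figure D3:**
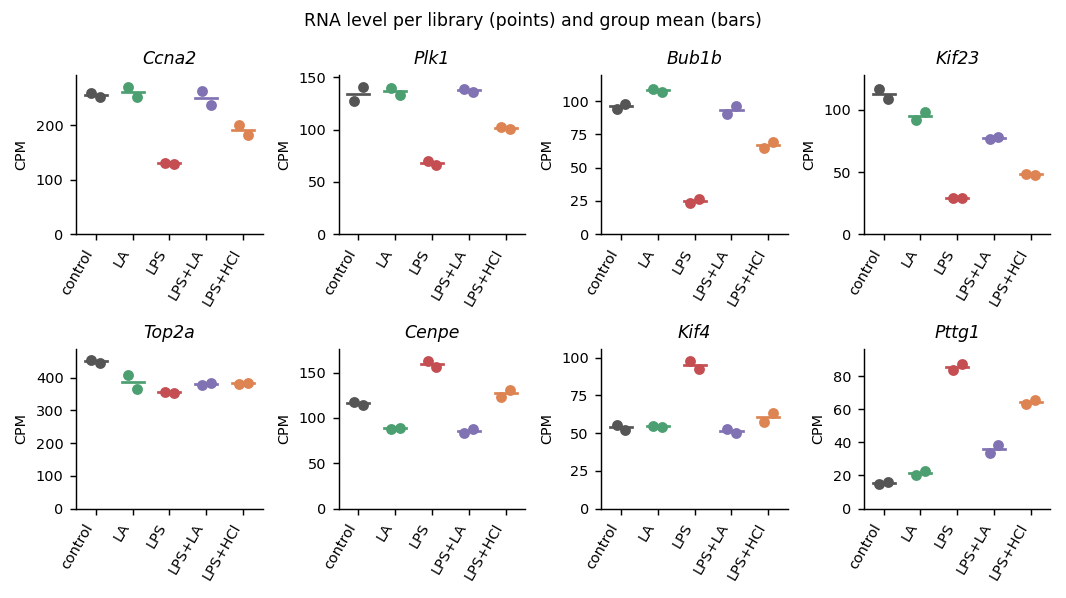
Level in CPM of 8 mitosis genes in each library (points) with the group mean of 2 libraries (bars), on linear axes from 0. Ccna2, Plk1, Bub1b and Kif23 are lowest in LPS, Top2a spans 354 to 455 CPM, and Cenpe, Kif4 and Pttg1 are highest in LPS; the Cenpe rise with LPS turns into a fall under total-count scaling.

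Spindle motors and microtubule proteins fell with LPS in 5 of 6 cases (median -0.54). Tpx2 (chr2:152847964-152895321), which activates Aurka and nucleates spindle microtubules, was at 187 and 191 CPM in control, 181 and 193 in LA, 146 and 148 in LPS, 178 and 173 in LPS+LA, and 165 and 161 in LPS+HCl. Nusap1 (chr2:119618298-119650165), which bundles microtubules near chromosomes, was at 111 and 106 CPM in control, 116 and 109 in LA, 95.5 and 94.9 in LPS, 112 and 113 in LPS+LA, and 112 and 120 in LPS+HCl. Both fell little, by 0.37 and 0.19, and the Nusap1 call was lost without control 1 (-0.16), LPS 1 (-0.19) or LPS 2 (-0.18). Kif11 (Eg5), which pushes spindle poles apart, fell by 1.05 with LPS, and its 0.19 difference between LPS+LA and LPS did not pass the test. Kif2c (MCAK), which takes microtubule ends apart, fell by 1.46 and was 0.81 higher with LPS+LA, and Hmmr, a spindle assembly factor, fell by 0.72 and was 0.40 higher.

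Kif4, a chromosome-bound kinesin of the spindle midzone (chrX:100626065-100727271), was the exception in this role. It was at 55.7 and 52.0 CPM in control, 54.6 and 54.2 in LA, 97.6 and 92.6 in LPS, 53.0 and 49.99 in LPS+LA, and 57.5 and 63.5 in LPS+HCl. The LPS libraries stood apart from all others, and the control libraries overlapped those of LA and of LPS+LA. The rise with LPS was 1.77-fold (0.82 ± 0.09, edgeR adjusted p = 1.01e-08), and under total-count scaling, at 0.10, it did not pass the test. LPS+LA and LPS+HCl were lower than LPS by -0.88 and -0.65. Cenpe (chr3:135212563-135273540), a kinetochore kinesin that carries chromosomes to the spindle equator, was likewise highest in LPS, at 118 and 114 CPM in control, 88.3 and 88.7 in LA, 162 and 156 in LPS, 83.5 and 88.2 in LPS+LA, and 123 and 131 in LPS+HCl. Its rise with LPS of 0.46 ± 0.07 (edgeR adjusted p = 8.87e-06) became a fall under total-count scaling (-0.26), whereas its lower level in LPS+LA than in LPS, by -0.89, kept its direction. LPS+HCl was below LPS by -0.32, a call lost under total-count scaling (-0.08). Cenpe was also lower in LA than in control, by -0.39.

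Cytokinesis genes had the lowest median of any role with LPS, with 6 of 6 falling and a median of -1.69, and all 6 were higher with LPS+LA than with LPS (median 0.94). Kif23 (chr9:61917277-61946810), a motor of the centralspindlin complex, was at 117 and 109 CPM in control, 91.6 and 98.5 in LA, 29.0 and 29.1 in LPS, 76.9 and 78.1 in LPS+LA, and 48.5 and 47.6 in LPS+HCl. It was 3.88-fold lower with LPS (edgeR adjusted p = 1.12e-15) and 2.67-fold higher with LPS+LA than with LPS (1.42 ± 0.09, edgeR adjusted p = 1.48e-12). The LPS+LA libraries were below both the control and the LA libraries. Kif20a, a kinesin that brings the passenger complex to the midzone, was at 144 and 142 CPM in control, 135 and 141 in LA, 41.6 and 42.7 in LPS, 91.7 and 97.3 in LPS+LA, and 62.3 and 61.4 in LPS+HCl. Prc1 (chr7:80294445-80316259), which bundles midzone microtubules, was at 173 and 159 CPM in control, 166 and 159 in LA, 110 and 104 in LPS, 157 and 155 in LPS+LA, and 132 and 137 in LPS+HCl. For Kif23, Kif20a and Prc1 the order was the same, with LPS lowest, LPS+HCl next and LPS+LA below control.

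Kif20b and Ect2, the latter the exchange factor that activates RhoA at the cleavage furrow, fell by 1.87 and 1.62 with LPS and were 0.78 and 1.09 higher with LPS+LA than with LPS. Anln (anillin), the scaffold of the contractile ring, fell by 1.20 and was 0.39 higher with LPS+LA, but its LPS+HCl libraries, at 59.8 and 58.3 CPM, were no higher than the LPS libraries at 64.3 and 64.1. Against LA alone, 5 of the 6 cytokinesis genes were still lower in LPS+LA, with Kif20b the lowest at -0.76. The call of Kif23 was lost without LA 2 (-0.24) or LPS+LA 1 (-0.27), and that of Ect2 without LA 1 (-0.28) or LPS+LA 2 (-0.31).

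Chromosome structure genes had the smallest fall by median, with 6 of 6 falling and a median of -0.46, and 4 of 6 were higher in LPS+LA than in LPS. Mki67 (Ki-67, chr7:135689784-135716450), a coat protein of mitotic chromosomes and a common marker of dividing cells, was at 745 and 828 CPM in control, 587 and 612 in LA, 545 and 515 in LPS, 592 and 666 in LPS+LA, and 533 and 604 in LPS+HCl. Top2a (topoisomerase IIα, chr11:98992947-99024199), which untangles sister chromatids, was at 455 and 444 CPM in control, 408 and 366 in LA, 356 and 354 in LPS, 377 and 384 in LPS+LA, and 381 and 384 in LPS+HCl. Control was highest for both, and the groups with LPS lay close together. LPS+LA was 0.25 ± 0.08 above LPS for Mki67 (edgeR adjusted p = 0.00765), a call lost without LPS 2 (0.21) or LPS+LA 2 (0.16), and 0.10 ± 0.07 for Top2a (edgeR adjusted p = 0.209).

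The condensin I subunits Ncapg and Ncapd2 fell by 0.84 and 0.92 with LPS and were 0.77 and 0.90 higher with LPS+LA. Smc2 and Smc4, the core ATPases that both condensins share, fell by 0.22 and 0.36. In LPS+LA against LPS, Smc4 was higher by 0.20 and Smc2 lower by -0.21 (edgeR adjusted p = 0.0271). The call of Smc2 was lost without any of the 4 LPS or LPS+LA libraries (-0.23 to -0.19) and its difference was 0.19 under total-count scaling. The call of Smc4 was lost without LPS 2 (0.15), LPS+LA 1 (0.20) or LPS+LA 2 (0.22) and with DESeq2 (0.17). In LPS against control the call of Smc2 was lost without control 1 (-0.14), LPS 1 (-0.23) or LPS 2 (-0.21).

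Lactic acid without LPS moved the mitosis genes in both directions. In LA against control, 7 genes were higher and 14 lower, where 20.4% of all genes were higher and 17.9% lower, and the median was -0.02 against 0.00 for all genes. Under total-count scaling 5 mitosis genes were higher and 17 lower, where 1719 and 3070 of all 12213 genes were. Without control 1 the counts of mitosis genes were 4 higher and 9 lower. The largest falls were those of Cenpf (-0.74), Ndc80 (-0.54) and Kif11 (-0.46), and the largest rises those of Pttg1 (0.47), Cdk1 (0.33) and Aurka (0.33). The Aurka call was lost without control 1 (0.29). By role, 5 of 8 kinetochore genes, 3 of 6 cytokinesis genes and 3 of 6 chromosome structure genes fell, whereas 3 of 5 anaphase control genes (Ube2c, Pttg1 and Cdca3) and 2 of 4 passenger complex genes (Aurkb and Birc5) rose. Without control 1 the calls of Aurkb (0.19), Birc5 (0.27), Bub1 (-0.24), Nuf2 (-0.18), Kif20b (-0.26), Kif23 (-0.20) and Top2a (-0.20) were lost, which leaves 3 kinetochore, 1 cytokinesis and 2 chromosome structure genes lower. The call of Anln was lost without LA 2 (-0.19).

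The effect of LPS in the presence of lactic acid was read from LPS+LA against LA. Here 12 genes were lower and 1 higher, where 14.6% of all genes were lower and 15.9% higher, and the median was -0.10 against -0.01. The largest falls were those of Kif20b (-0.76), Aurka (-0.62) and Ttk (-0.59). Under total-count scaling, where the median of all genes moved by -0.21, 35 mitosis genes were lower and 1 higher. Of all 12213 genes, 4260 were then lower and 1294 higher. Under TMM scaling the other 29 mitosis genes did not pass the test, which does not show that they were equal. The difference between the LA effect with LPS and without LPS, tested as an interaction, was above 0 for 34 mitosis genes and below 0 for 3, against 20.4% and 23.9% of all genes, with a median of 0.64 against 0.00. It was largest for Cenpf (1.77 ± 0.15, edgeR adjusted p = 7.15e-10), Bub1b (1.73 ± 0.12, edgeR adjusted p = 3.03e-11) and Kif23 (1.66 ± 0.12, edgeR adjusted p = 4.08e-11), and below 0 for Pttg1 (-1.71), Kif4 (-0.90) and Cenpe (-0.50; the last was 0.011 under total-count scaling).

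Over the 5 groups, 35 genes (83.3%) had their lowest mean in LPS, against 33.1% of all tested genes. From high to low, 25 (59.5%) stood in the order control, LPS+LA, LPS+HCl, LPS, against 15.2% of all. The highest mean was in control for 21 (50%, against 24.4% of all), in LA for 14 (33.3%, against 21.3%) and in LPS for 3 (7.14%, against 30%). These shares describe group means and were not tested. The excess of LPS+LA over LPS+HCl was widest for Espl1, Cdc20 (0.69 ± 0.09, edgeR adjusted p = 1.82e-06) and Kif23 (0.69 ± 0.08, edgeR adjusted p = 3.71e-07), while Pttg1 (-0.83), Cenpe (-0.57) and Kif4 (-0.23) were lower in LPS+LA. The Kif4 call was lost under total-count scaling (-0.07) and without LPS 1 (-0.22), LPS 2 (-0.22), LPS+LA 1 (-0.26), LPS+LA 2 (-0.19) or LPS+HCl 2 (-0.16). In LPS+HCl against LPS, the calls of Kif11, Hmmr and Spc25 were lost without any of the 4 libraries compared (0.18 to 0.36). Also lost were those of Kif2c (0.29 without LPS 1), Nuf2 and Nusap1 (0.28 and 0.27 without LPS 2), Birc5 (0.28 without LPS 2) and Cdk1 (0.21 without LPS 1).

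Other genes of the pathway were counted in lists set by function. Of all tested genes, 32.4% were lower and 32.4% higher with LPS, and 29.2% were higher and 29.7% lower in LPS+LA than in LPS. Of 59 other mitosis genes, 47 fell and 6 rose with LPS (median -1.09), and 48 were higher and 4 lower in LPS+LA than in LPS (median 0.90). Ccnf (cyclin F) was at 98.7 ± 6.24 CPM (SD) in control, 6.78 ± 1.62 in LPS, 46.1 ± 1.42 in LPS+LA and 16.5 ± 0.97 in LPS+HCl, a fall of 3.86 with LPS. Cdca2, which recruits a phosphatase to chromosomes, went from 53.7 to 6.28 CPM with LPS and stood at 36.8 CPM with LPS+LA. The phosphatase Cdc25b, an activator of Cdk1, went from 131 to 37.7 CPM, and the kinesin Kif22 was at 21.8 CPM in LPS and 75.8 CPM in LPS+LA. Of 42 DNA replication genes, 32 fell and 1 rose with LPS (median -0.83), and 32 were higher and 2 lower in LPS+LA than in LPS (median 0.69). The licensing factors Cdt1 and Cdc6 went from 98.1 to 18.02 CPM and from 26.9 to 1.31 CPM with LPS, and Uhrf1, which maintains DNA methylation at replication forks, fell by 1.97. Against the list, Mcm10, an initiation factor, was 108 CPM in LPS, 51.6 in control and 37.9 in LPS+LA. In LPS+HCl against LPS, 38 of the other mitosis genes and 18 of the replication genes were higher, and 2 and 3 were lower. Of all tested genes, 18% were higher and 20.8% lower in that comparison.

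**Figure D4:**
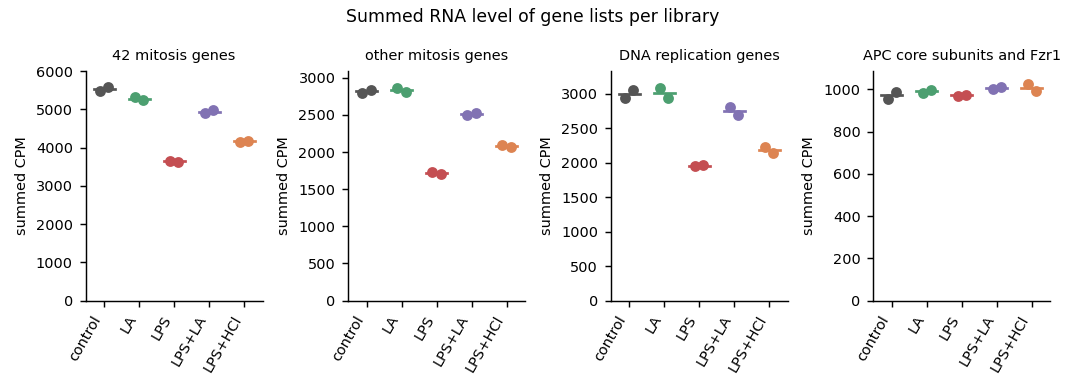
Summed CPM of the 42 mitosis genes, the other mitosis genes, the DNA replication genes and the core subunits of the anaphase-promoting complex (APC) with Fzr1 in each library (points) with group means (bars), from 0. The first 3 sums are lowest in LPS, with LPS+HCl next and LPS+LA above it, while the last sum lies between 956 and 1024 CPM in these TMM-scaled values.

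The core subunits of the anaphase-promoting complex, listed with its coactivator Fzr1 (Cdh1), lacked this pattern under TMM scaling. With LPS 5 of 15 genes fell and 2 rose (median 0.06), where 32.4% of all genes were lower and 32.4% higher. In LPS+LA against LPS 4 were higher and 2 lower (median 0.07), where 29.2% and 29.7% of all genes were. Under total-count scaling 13 of 15 were lower with LPS (median -0.66), where 8289 of all 12213 genes were (median -0.77). With LPS+LA against LPS 13 were then higher (median 0.47), where 6208 of all genes were (median 0.43). Cdc23 and Anapc7 fell with LPS by 0.78 and 0.54, and Cdc27 rose by 0.66, a direction that reversed under total-count scaling (-0.06). Among 23 regulators of mitotic genes, 16 fell and 2 rose with LPS (median -0.61), and 13 were higher and 2 lower with LPS+LA than with LPS (median 0.42). Foxm1, an activator of mitotic genes, was at 188 ± 14.6 CPM in control, 76.4 ± 0.51 in LPS, 150 ± 2.59 in LPS+LA and 118 ± 0.11 in LPS+HCl. The activator E2f2 fell from 74.7 to 3.54 CPM with LPS and stood at 53.5 CPM with LPS+LA, and the repressor E2f7 fell from 38.2 to 4.49 CPM. Rbl1 (p107), a pocket protein of DREAM, had the opposite order, at 76.6 CPM in control, 135 in LPS and 64.3 in LPS+LA.

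Promoter windows from 250 bases before to 50 after the annotated start were found for 36 of the 42 genes in RefSeq on GRCm38.p6. Ccna2, Aurkb, Incenp, Tpx2, Kif20a and Smc4 have no entry in the table used here. A CHR match (TTTGAA or TTCGAA, either strand) was present in 29 of the 36 genes (80.6%), against 16.7% of all 9797 tested genes with windows. A CCAAT box on either strand was present in 27 (75.0%) against 43.5%, and both together in 25 (69.4%) against 7.27%. In the narrower span within 50 bases of the start, 26 genes (72.2%) had a CHR match against 4.48% of all. The E2F letters (TTTCCCGC, TTTCGCGC, TTTGCCGC or TTTGGCGC, either strand), typical of replication genes, were present in 3 (8.33%; Cdk1, Ncapd2 and Ncapg) against 4.74%. For 34 DNA replication genes with windows the shares were reversed, with 6 (17.6%) holding a CHR match and 14 (41.2%) the E2F letters. CHR and CCAAT matches shared a base in 1 gene, Cdca8. Such matches describe letters in the window and not binding.

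**Figure D5:**
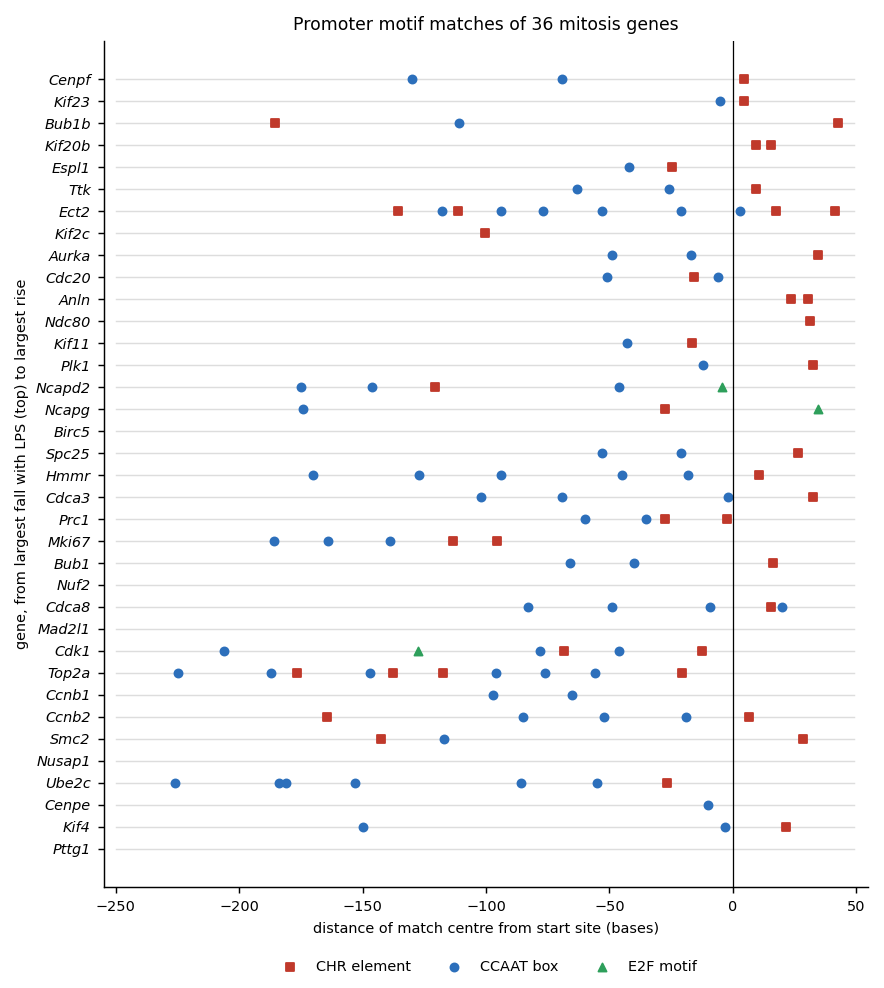
Positions of CHR matches, CCAAT boxes and E2F letters in the promoter windows of 36 mitosis genes, in bases from the annotated start, with genes sorted by their log2 difference with LPS. CHR matches gather near the start and CCAAT boxes upstream of it; Ect2 and Prc1 have 2 windows each.

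The 7 genes with no CHR match in the window were Birc5, Ccnb1, Cenpe, Mad2l1, Nuf2, Nusap1 and Pttg1. They include Pttg1 and Cenpe, which were higher with LPS, and their differences with LPS ran from -0.81 to 2.46 with a median of -0.33. The 29 genes with a match ran from -2.01 to 0.82, with a median of -0.92, and include Kif4, which was also higher. The annotated start used for Pttg1 lies 1482 bases, and that for Kif2c 3852 bases, inside the outer bound of the gene. For the genes with and without a CCAAT box the medians were -0.72 and -0.81. No test was made of these differences.

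Open chromatin was measured in separate samples by ATAC-seq, which reads where a transposase can enter the DNA, with 3 samples each of control, LPS, LPS+LA and LA cells and 76680 to 100667 peaks per sample. A peak overlapped the promoter window in all 12 samples for 35 of the 36 mitosis genes (97.2%), against 87.7% of all tested genes with windows. The exception was Kif2c, with no peak in any sample. The annotated start used for it lies 3852 bases inside the outer bound of the gene. Among these 36 genes none had a peak in some samples only. Over all tested genes with windows this was rare (5.09%), so peak presence could show little difference between treatments. The same 35 were found when only peaks at or above the median score of their sample were used, and with an overlap of at least 50 bases. The peak lists hold no read counts per sample, so the height of accessibility was not compared.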

How the data were processed

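Expected counts, TPM and FPKM per gene were deposited by the authors for 10 RNA libraries. The counting tool and the strand setting are not given in the sources used here, while the submitters' processing notes name HISAT, Bowtie2 and GRCm38.p6. The expected counts as deposited were rounded to whole numbers, since 6.07% had decimals. Deposited TPM served to compare levels between genes, and deposited FPKM was not used in any result. Peak lists with the score of each peak were deposited by the authors for 12 ATAC-seq samples, called per sample with MACS2 2.0.10 per the file headers and the submitters' processing notes, which also name BWA 0.5.9, Picard and mm10 (GRCm38); the score was used only to filter peaks within a sample.

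Genes with at least 10 counts by filterByExpr (minimum total 15) were kept, 12213 of 16059. All 10 libraries entered 1 model with a term per group in edgeR 4.0.16 (R 4.3.3, TMM, robust quasi-likelihood, two-sided, Benjamini-Hochberg over all genes tested, threshold 0.05). Standard errors were taken as the log2 ratio over the square root of F. The test was checked on simulated counts in which few genes differed between LPS+LA and LPS, evenly up and down. That check does not cover TMM scaling when many genes differ between those groups. Alternatives were DESeq2 1.42.0, its size factors, total-count scaling, no filter, each library left out, both libraries with neuron transcripts left out, and a replicate block. Replicate libraries differed by more than sampling noise (chi-square per degree of freedom 3.33 to 10.9), and no library was counted out as a copy. Promoter windows came from RefSeq, and an overlap of 1 base with a peak counted.

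The members, roles and other lists were chosen with earlier results of these data known. In each role the 2 members with the highest mean TPM are given library by library, in each comparison the 3 largest rises and falls among the genes called are named, and from each other list up to 3 genes with the smallest adjusted p in a comparison are named. Library values are also given for Bub1b, Cenpf, Cenpe, Espl1, Pttg1, Kif4 and Kif23, which are named for the size of their change. Those of Plk1 and Anln fall outside these rules. Library values of all these genes were chosen for printing after the values were seen.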

Additional observations from a re-analysis of the deposited data

Results flagged for a closer look

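The effect of lactic acid on 37 of the 42 mitosis genes differed between cells given LPS and cells without it. This was read from the interaction term of edgeR's quasi-likelihood test (adjusted p under 0.05, n = 2 libraries per group). The term is the log2 effect of LA with LPS minus the log2 effect of LA without LPS. It was above 0 for 34 mitosis genes and below 0 for 3, against 20.4% and 23.9% of all tested genes. Among the cyclins and kinases the difference was 0.92 for Ccna2, 0.49 for Ccnb1, 0.36 for Ccnb2, 0.37 for Cdk1, 0.99 for Plk1, 0.74 for Aurka and 1.03 for Ttk. In the chromosomal passenger complex it was 0.91 for Aurkb, 0.60 for Birc5, 0.55 for Incenp and 0.48 for Cdca8. At the kinetochore it was 0.64 for Bub1, 1.73 for Bub1b, 1.77 for Cenpf, 1.05 for Ndc80, 0.53 for Nuf2, 0.64 for Spc25 and -0.50 for Cenpe. In anaphase control it was 1.20 for Cdc20, 1.64 for Espl1, 0.64 for Cdca3 and -1.71 for Pttg1. Among spindle motors and microtubule proteins it was 0.65 for Kif11, 1.12 for Kif2c, 0.28 for Tpx2, 0.30 for Hmmr and -0.90 for Kif4. In cytokinesis it was 1.22 for Kif20a, 1.11 for Kif20b, 1.66 for Kif23, 0.58 for Prc1, 0.71 for Anln and 1.24 for Ect2. In chromosome structure it was 0.32 for Top2a, 0.64 for Mki67, 0.96 for Ncapg and 0.79 for Ncapd2. Ccnb1, Kif11 and Top2a were lower with LA alone, and their differences between LPS+LA and LPS did not pass the test. Mad2l1, Ube2c, Nusap1, Smc2 and Smc4 did not pass the interaction test. The call of Cdk1 was lost without LPS 1 (0.33), and those of Hmmr (0.27 to 0.33) and Tpx2 (0.23 to 0.30) without LPS 1, LPS 2 and other single libraries. With 2 libraries per group, no test for a single outlying library within a group was run.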

How the results depend on the processing

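Under total-count scaling the mitosis genes higher with LPS were 1 in place of 3, where 1761 of all 12213 genes were higher. In LPS+HCl against LPS 38 mitosis genes were higher and 1 lower in place of 24 and 3, where 4535 and 1310 of all genes were. The mitosis genes lower in LPS+LA than in LA were 35 in place of 12, where 4260 of all genes were lower under total-count scaling. Directions reversed under it for Cenpe, LPS against control (-0.26), Ube2c, LPS against control (-0.66), Smc2, LPS+LA against LPS (0.19), Ube2c, LPS+HCl against LPS (0.17), Smc2, LPS+HCl against LPS (0.22), Top2a, LPS+LA against LPS+HCl (0.16), Plk1, LPS+LA against LA (-0.20), Nusap1, LPS+LA against LA (-0.21), Cenpe, interaction of LPS and LA (0.011), and Cdc27, LPS against control (-0.059). Without both libraries with neuron transcripts, LA against control gave 4 higher and 9 lower in place of 7 and 14. Leaving out each library in turn gave, for lower and higher genes, 36 to 38 and 3 to 3 in LPS against control, 9 to 14 and 4 to 8 in LA against control (the lowest without control 1), 3 to 4 and 31 to 35 in LPS+LA against LPS, 3 to 3 and 17 to 24 in LPS+HCl against LPS, 2 to 4 and 21 to 28 in LPS+LA against LPS+HCl, 8 to 11 and 1 to 1 in LPS+LA against LA, and 3 to 3 and 31 to 34 for the interaction; the lone library of a group was then assumed to vary like the others. The cause of these changes was not tested. Same-numbered libraries did not deviate together: correlations lay from -0.05 to 0.05, except -0.50 for control with LPS+HCl, where control 1 and LPS+HCl 2, which hold the neuron transcripts, deviate the same way. The numbers were therefore not taken as pairs, and the replicate block gave 38 lower and 3 higher with LPS and 4 lower and 35 higher in LPS+LA against LPS. DESeq2 gave 36 and 3, and 4 and 34. With 2 libraries per group, small differences such as those of Smc2 and Nusap1 are near the limit of detection.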

Other observations

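Genes that act before mitosis did not all follow the mitosis genes. Of 9 G1 cyclins and kinases, 7 fell and 2 rose with LPS, where 32.4% of all genes were lower and 32.4% higher. In LPS+LA against LPS 6 were higher and 2 lower, where 29.2% and 29.7% of all genes were. Ccnd1 (cyclin D1) was at 444 CPM in control, 106 in LPS, 386 in LPS+LA and 243 in LPS+HCl, a fall of 2.07 with LPS. Ccnd2 (cyclin D2) had the opposite order, at 88.2 CPM in control, 765 in LPS, 128 in LPS+LA and 513 in LPS+HCl, a rise of 3.12. Ccnd3 (cyclin D3) was at 53.6 CPM in LPS and 144 in LPS+LA, and Cdk6 rose from 158 to 370 CPM with LPS.

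Of 10 CDK inhibitors, 5 fell and 3 rose with LPS (median 0.001), where 32.4% of all genes were lower and 32.4% higher. In LPS+LA against LPS 6 were higher and 1 lower, where 29.2% and 29.7% of all genes were. Under total-count scaling 6 CDK inhibitors fell and 1 rose with LPS (median -0.72). Of all 12213 genes, 8289 were lower and 1761 higher under that scaling (median -0.77). Cdkn1a (p21), which restrains cyclin-dependent kinases, rose with LPS by 3.25, from 363 ± 1.63 CPM (SD, n = 2) in control to 3445 ± 83.9 CPM. It was also higher in LA than in control, at 1667 ± 213 CPM (2.20 ± 0.07). Any link of Cdkn1a to the mitosis genes was not tested. Cdkn1a stood at 2560 CPM in LPS+LA and 2148 CPM in LPS+HCl. Cdkn2c fell from 108 to 41.1 CPM with LPS and was at 103 CPM in LPS+LA, and Cdkn2d and Cdkn1b were higher in LPS+LA than in LPS, by 1.58 and 1.14.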
